A study of Arabidopsis thaliana with 6 samples.

Results

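The 8 genes described here carry steps of gibberellin action in Arabidopsis thaliana: the synthesis enzymes GA20OX1, GA20OX2 and GA3OX1, the receptor GID1A, the DELLA repressors RGA and GAI, and the small peptides GASA4 and GASA6. They were chosen by locus, and all 8 were found among the 24193 genes of the deposited table. The study compared seedlings kept for 6 days in darkness on Petri dishes, in 3 libraries of the wild type Col-0 (wt) and 3 of the mutant lon1-1. The mutated gene, LON1, codes for a protease of the mitochondrial matrix. The libraries are from biological replicates described as independent, lettered A to C. No other allele, transgene or treatment is given for either group, and lon1-1 is a single mutant line. Groups follow the sample titles, because Col-0 stands as genotype in the labels of the mutant libraries too. Values are FPKM (fragments mapped to a gene, scaled to transcript length and library size), a level per length.

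Gibberellins are growth hormones that etiolated seedlings need for a long hypocotyl and a closed apical hook. Their last synthesis steps are carried out by the GA20OX and GA3OX oxidases. The hormone binds a GID1 receptor, the complex then captures DELLA proteins for destruction, and growth genes that the DELLA proteins held back become active. A feedback loop is known in which DELLA proteins raise transcripts of synthesis enzymes and receptors, so that active gibberellin lowers them. GASA genes code for small cysteine-rich secreted peptides, several of which gibberellin induces.

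Of the 8 genes, 4 carried the sequence CACATG, or its reverse complement CATGTG, within 250 bases before the annotated gene start. Their windows are shown because 3 of these genes rose and 1 fell in lon1-1. The motif was chosen after these values were seen, and a link between motif and direction was not tested. CACATG is a form of E-box that PIF factors, partners of DELLA proteins, can bind. Sequences are from the RefSeq TAIR10.1 genome, read 5′ to 3′ on the strand of the gene, with the motif in capitals. The windows lie at chr5:21056882-21057131 (minus strand), chr1:5346343-5346592 (minus strand), chr5:4944566-4944815 (plus strand) and chr1:28052780-28053029 (plus strand).
GA20OX2: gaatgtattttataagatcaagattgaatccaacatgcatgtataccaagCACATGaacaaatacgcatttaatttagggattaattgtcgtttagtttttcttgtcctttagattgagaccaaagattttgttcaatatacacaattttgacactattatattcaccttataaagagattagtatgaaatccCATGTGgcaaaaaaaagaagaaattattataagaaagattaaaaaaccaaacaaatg
GA3OX1: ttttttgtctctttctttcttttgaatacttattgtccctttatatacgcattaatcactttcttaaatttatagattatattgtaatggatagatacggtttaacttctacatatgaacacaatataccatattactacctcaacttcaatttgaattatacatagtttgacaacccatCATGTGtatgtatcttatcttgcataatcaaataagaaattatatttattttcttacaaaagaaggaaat
GASA4: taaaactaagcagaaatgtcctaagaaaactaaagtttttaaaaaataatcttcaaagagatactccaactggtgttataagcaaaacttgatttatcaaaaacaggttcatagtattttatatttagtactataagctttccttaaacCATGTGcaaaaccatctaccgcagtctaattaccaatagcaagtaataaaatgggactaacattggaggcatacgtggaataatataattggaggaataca
GASA6: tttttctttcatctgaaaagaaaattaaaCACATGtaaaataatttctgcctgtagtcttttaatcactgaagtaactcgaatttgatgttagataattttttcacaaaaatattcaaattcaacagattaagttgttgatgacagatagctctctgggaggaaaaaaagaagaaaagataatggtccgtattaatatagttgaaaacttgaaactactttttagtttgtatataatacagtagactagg

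In GA20OX2 the 2 matches began 200 and 57 bases before the gene start. The matches began 70 bases before it in GA3OX1, 101 in GASA4 and 221 in GASA6. Both strands were searched, and 11.1% of 27437 protein-coding gene windows of the same length held the motif. Other motifs were rarer among the 8 windows. TAACAAA, the core of a gibberellin response element of cereal amylase genes, was in the GID1A window and in 16.1% of all windows. TATCCA, a sugar response element of the same kind of promoter, was in the GA3OX1 window and in 13.6% of all windows. The G-box CACGTG (6.49% of all windows) and the mitochondrial dysfunction motif (1.2%) were in none of the 8. No match overlapped a match of another motif. These matches describe letters in a window and do not show that a factor binds there.

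All 8 genes passed the test between genotypes, 3 higher and 5 lower in lon1-1, but so did 77.0% of the 18308 genes tested (44.7% higher and 32.3% lower), so the count by itself sets nothing apart. In the same way, the lon1-1 libraries lay wholly on one side of the wt libraries for all 8, as they did for 79.1% of tested genes (45.7% higher and 33.4% lower). The test was limma on log2(FPKM + 1) with p adjusted by Benjamini-Hochberg over all tested genes, and log2 fold changes are lon1-1 minus wt. The median log2 fold change of the 8 was -0.26, against 0.08 over all tested genes. GASA6 had by far the largest change of the 8, and 0.858% of tested genes changed more in absolute size. For GA20OX2, GASA4 and GA3OX1 that share was 18.8%, 23.6% and 24.4%. For GID1A, RGA, GA20OX1 and GAI it was 51.5%, 52.7%, 57% and 61.4%, so these 4 changes were near the middle of all tested genes, whose median absolute log2 fold change was 0.334. A stricter limma test, treat, asks whether a change on log2(FPKM + 1) exceeds 1.5-fold. GASA6 passed it and the other 7 did not, beside 16.0% of all tested genes that passed. GASA6 was also the 1 member of 8 with an adjusted p under 0.05 and an absolute log2 fold change of at least 1, beside 8.84% of tested genes.

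**Figure D1:**
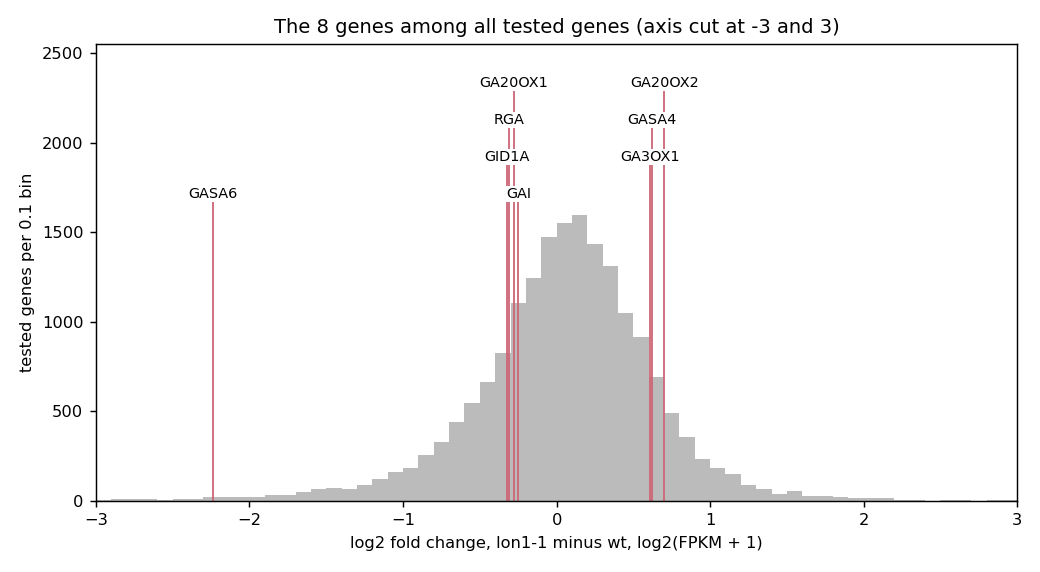
Number of tested genes (y axis) by log2 fold change, lon1-1 minus wt on log2(FPKM + 1) (x axis, bins of 0.1), with the 8 gibberellin genes as vertical lines. GASA6 lies at -2.24 in the lower tail, while the other 7 lie between -0.32 and 0.70.

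LON1 itself (AT5G26860) was lower in lon1-1, at 2.67, 2.61 and 2.79 FPKM, than in wt, at 4.69, 4.70 and 4.69 (log2 fold change -0.63, SE 0.0553, limma adjusted p = 3.58e-06). Summed FPKM was 719059 to 724780 in wt and 690404 to 696877 in lon1-1. Depth estimated from the steps between low values was 32250000 to 32750000 fragments in wt and 34250000 to 35250000 in lon1-1, so the groups did not overlap in either, and the part of this in the results was not tested. The dark seedling genes PORA and PORB, protochlorophyllide reductases, were present in every library but fell, from 181.2 ± 3.62 to 101.6 ± 0.29 and from 305.8 ± 6.63 to 137.8 ± 4.60 FPKM (SD, n = 3; log2 fold changes -0.83 and -1.15). Of the other 4 etiolated seedling markers PIF1, PIF3 and COP1 rose and HLS1 was not called, and the summed FPKM of all 6 was 526.3 to 542.2 in wt and 304.8 to 313 in lon1-1. All 7 root hair markers rose, beside 44.7% of all tested genes. Their summed FPKM was 54.84 to 57.82 in wt and 112 to 121 in lon1-1. Seed storage markers were at 68.58 to 72.09 and 92.28 to 97.47, with 2 higher and 5 lower of 8. CRA1 carried the rise of the sum, from 25.2 ± 0.664 to 61.0 ± 2.77 FPKM (SD, n = 3), while most of the list fell. The other higher gene, SESA4, reached 1 FPKM in each lon1-1 library but in wt only in A. SESA1, among the lower, met the filter through wt alone. Shoot meristem markers were at 22.68 to 23.82 and 20.17 to 21.53. Of the 2 tested, STM fell, from 4.73 ± 0.0971 to 2.33 ± 0.351 FPKM (SD, n = 3). KNAT1, at 18.1 ± 0.488 and 17.7 ± 0.556 FPKM, was called lower only with median-ratio scaling. CLV3 was at 0.15 FPKM or less in every library and WUS was not listed. The sums of these marker lists lay apart between the genotypes, though not every marker was called. The part of these lists in the results below was not tested. In whole seedlings, fewer cells of a type and less RNA per cell cannot be told apart.

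Synthesis came first, and its GA20OX genes moved in opposite directions. GA20OX1 (AT4G25420, chr4:12990851-12992585, minus strand), which oxidises gibberellin precursors and is prominent in stem growth, had 4.09, 3.18 and 3.46 FPKM in wt A, B and C. The lon1-1 libraries had 2.79, 2.50 and 3.00 FPKM. The lowest wt library lay just above the highest lon1-1 library, so the groups were apart by a narrow margin. Mean level fell 1.29-fold, from 3.58 ± 0.466 to 2.76 ± 0.251 (SD, n = 3), with a log2 fold change of -0.28 (SE 0.0856, limma adjusted p = 0.0132). Without wt A, the highest library, the log2 fold change was -0.20 and the call was lost (limma adjusted p = 0.0502).

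GA20OX2 (AT5G51810, chr5:21055179-21056881, minus strand), a second enzyme of the same step, had 1.02, 1.27 and 1.48 FPKM in wt A, B and C. In lon1-1 it had 2.72, 2.50 and 2.76 FPKM. Every lon1-1 library was well above every wt library. Mean level rose 2.12-fold, from 1.26 ± 0.23 to 2.66 ± 0.14 (SD, n = 3), with a log2 fold change of 0.70 (SE 0.0849, limma adjusted p = 3.54e-05). An estimated 45 to 130 fragments per library stood behind these values, the fewest among the 8 genes, and the added 1 shrinks the log2 value: with an added 0.1 it was 1.04.

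GA20OX1 and GA20OX2 therefore came to like levels in lon1-1, where their library values overlapped, while in wt GA20OX1 was the higher in each library. GA20OX3, another enzyme of this step, had 0.30, 0.25 and 0.21 FPKM in wt and 1.22, 1.22 and 1.06 in lon1-1. It met the filter of 1 FPKM in 3 libraries through the lon1-1 libraries alone, so it had to differ and its values are a description. The GA20OX3 log2 fold change was 0.79, and 1.85 with an added 0.1 in place of 1. GA20OX4 and GA20OX5 stayed at 0.31 FPKM or less and were not tested. The share of GA20OX1 in the summed FPKM of the 5 genes was 74.4%, 67.2% and 64.8% in wt, against 39.6%, 39.3% and 42.1% in lon1-1. All lon1-1 shares were lower (two-sided exact permutation p = 0.1, the smallest that 3 against 3 libraries allow; 0.133 adjusted over 4 such shares). The family's summed FPKM was 5.19 ± 0.406 in wt and 6.84 ± 0.418 in lon1-1 (SD, n = 3).

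GA3OX1 (AT1G15550, chr1:5344388-5346342, minus strand), which makes the bioactive hormone in the final step, had 11.11, 11.72 and 11.34 FPKM in wt A, B and C. In lon1-1 it had 17.61, 18.60 and 17.50 FPKM. The groups were far apart and each was tight. Mean level rose 1.57-fold, from 11.4 ± 0.308 to 17.9 ± 0.606 (SD, n = 3), with a log2 fold change of 0.61 (SE 0.0427, limma adjusted p = 6.77e-07). It made up 99.5% ± 0.337 and 99.3% ± 0.344 of its family's summed FPKM (SD, n = 3; exact permutation p = 0.7). GA3OX2 and GA3OX3 were at 0.18 FPKM or less, and GA3OX4 was not listed.

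The steps before and after these oxidases were also called in both directions. Of all tested genes 44.7% were called higher and 32.3% lower, so calls in both directions do not set these steps apart. Of 5 early synthesis genes, KS, KO and KAO1 rose and KAO2 fell, while CPS, the first committed step, was below the filter at 0.27 FPKM or less. KS, which closes the ring system, went from 2.13 ± 0.0987 to 3.46 ± 0.277 FPKM, and KO and KAO1, cytochromes P450 of the next steps, had log2 fold changes of 0.31 and 0.39. KAO2, which shares the KAO1 step, had a log2 fold change of -0.22. Among 11 inactivation genes 4 were tested, 2 higher and 2 lower. The 2 at the highest level fell: GA2OX6, an oxidase that inactivates gibberellin, from 17.4 ± 0.0693 to 9.97 ± 0.421 FPKM, and ELA1, a cytochrome P450 that does so, from 17.2 ± 0.437 to 10.2 ± 0.422 (SD, n = 3). GA2OX2 and GA2OX8, oxidases of the same kind, rose from 4.13 ± 0.206 to 5.21 ± 0.139 and from 2.79 ± 0.313 to 3.88 ± 0.301. Untested for its low level, GA2OX7 had 0.03, 0.09 and 0.06 FPKM in wt and 0.45, 0.47 and 0.47 in lon1-1. Summed over the inactivation list, FPKM was 42.7 ± 0.286 in wt and 30.9 ± 0.502 in lon1-1 (SD, n = 3).

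**Figure D2:**
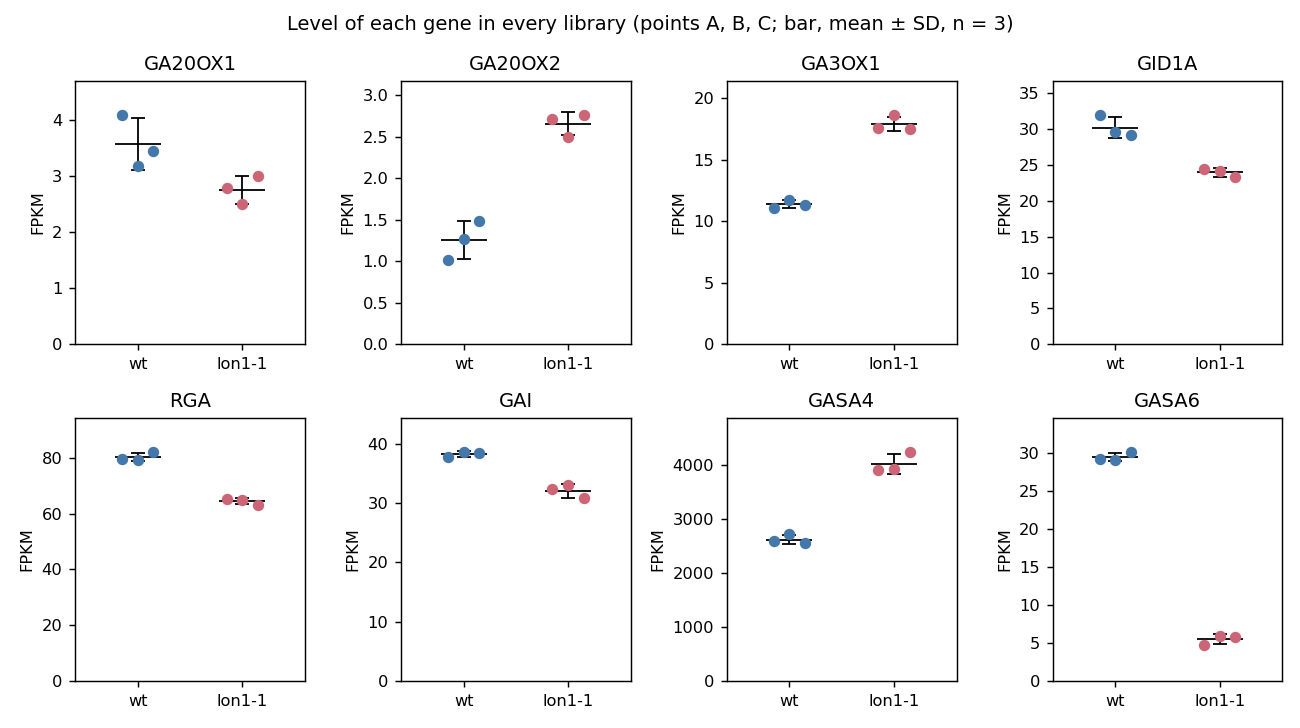
FPKM (y axis, from 0) of each of the 8 genes in the 3 wt and 3 lon1-1 libraries (points A, B and C from left to right), with mean and SD (n = 3). The groups do not overlap in any panel, are closest for GA20OX1 (3.18 against 3.00) and farthest apart in ratio for GASA6.

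All 3 receptor genes fell in lon1-1, beside 32.3% of all tested genes called lower. GID1A (AT3G05120, chr3:1430363-1432844, plus strand), a soluble receptor that binds gibberellin, had 31.94, 29.64 and 29.13 FPKM in the wt libraries. In lon1-1 the values were 24.50, 24.18 and 23.28 FPKM. No lon1-1 library reached a wt level. Its mean fell 1.26-fold, from 30.2 ± 1.497 to 24.0 ± 0.633 (SD, n = 3), with a log2 fold change of -0.32 (SE 0.0428, limma adjusted p = 7.09e-05). The other receptors, GID1B and GID1C, fell further, with log2 fold changes of -0.56 (SE 0.0701, limma adjusted p = 4.3e-05) and -0.64 (SE 0.0494, limma adjusted p = 1.39e-06). GID1B went from 12.9 ± 0.984 to 8.40 ± 0.717 FPKM and GID1C from 20.7 ± 1.25 to 12.9 ± 0.404. The share of GID1A in the receptor total was 50.3%, 47.2% and 44.8% in wt and 53.3%, 52.8% and 52.7% in lon1-1, higher in each lon1-1 library (exact permutation p = 0.1, the smallest possible; 0.133 adjusted). SLY1, the F-box protein that marks DELLA proteins for destruction, had 18.6 ± 0.277 and 17.9 ± 0.619 FPKM and was not called (log2 fold change -0.06, 95% interval -0.14 to 0.03). With median-ratio scaling it was called lower (-0.14). Its relative SNE was below the filter, at 0.55 to 0.77 FPKM in wt and 0.15 to 0.18 in lon1-1.

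Both DELLA members fell by a small and even amount. RGA (AT2G01570, chr2:255247-257568, minus strand), the most abundant DELLA repressor here, had 79.73, 79.18 and 82.04 FPKM in wt A, B and C. In lon1-1 it had 65.33, 65.01 and 63.11 FPKM. Its mean fell 1.25-fold, from 80.3 ± 1.52 to 64.5 ± 1.20 (SD, n = 3), with a log2 fold change of -0.31 (SE 0.0307, limma adjusted p = 7.82e-06).

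GAI (AT1G14920, chr1:5148982-5151415, plus strand), the close paralog of RGA with which it restrains stem growth, had 37.68, 38.58 and 38.42 FPKM in the wt libraries. In lon1-1 the values were 32.36, 33.03 and 30.76 FPKM. All lon1-1 libraries were lower here too. Its mean fell 1.19-fold, from 38.2 ± 0.48 to 32.1 ± 1.17 (SD, n = 3), with a log2 fold change of -0.25 (SE 0.0361, limma adjusted p = 0.000134). The longest identical run of the 2 transcripts is shown because it bears on whether reads of these paralogs can be told apart. It is 30 bases, from base 1280 of the RGA transcript and base 1332 of the GAI transcript.
RGA and GAI shared run: tttccggttaaccggaattggtccaccggc

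No stretch of 50 bases in the transcripts of any of the 8 genes occurred, read in the same sense, in a transcript of another gene. Reverse complements were not searched, so the overlap of GASA6 with a gene model on the opposite strand, given below, is not covered. The remaining DELLA genes were split. RGL1 fell slightly, from 23.4 ± 0.574 to 21.0 ± 0.286 FPKM (log2 fold change -0.15). RGL2, the DELLA protein best known from seed germination, rose 2.56-fold. It had 2.84, 2.59 and 3.14 FPKM in wt and 7.68, 6.79 and 7.44 in lon1-1, a log2 fold change of 1.11 (SE 0.0706, limma adjusted p = 3.46e-07). RGL3 rose from 2.48 ± 0.0379 to 2.97 ± 0.236 FPKM (limma adjusted p = 0.0239), a call lost with median-ratio scaling (0.121) and without wt A, wt B, lon1-1 B or lon1-1 C (0.0509 to 0.099). Summed over the 5 genes, FPKM was 147.3 ± 2.34 in wt and 127.8 ± 2.49 in lon1-1 (SD, n = 3). The share of RGA in that sum was 54.8%, 54% and 54.7% in wt, against 50.5%, 50.3% and 50.5% in lon1-1, lower in each lon1-1 library (exact permutation p = 0.1, the smallest possible; 0.133 adjusted). The share of RGL2 was 1.94% ± 0.164 and 5.72% ± 0.402 (SD, n = 3).

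**Figure D3:**
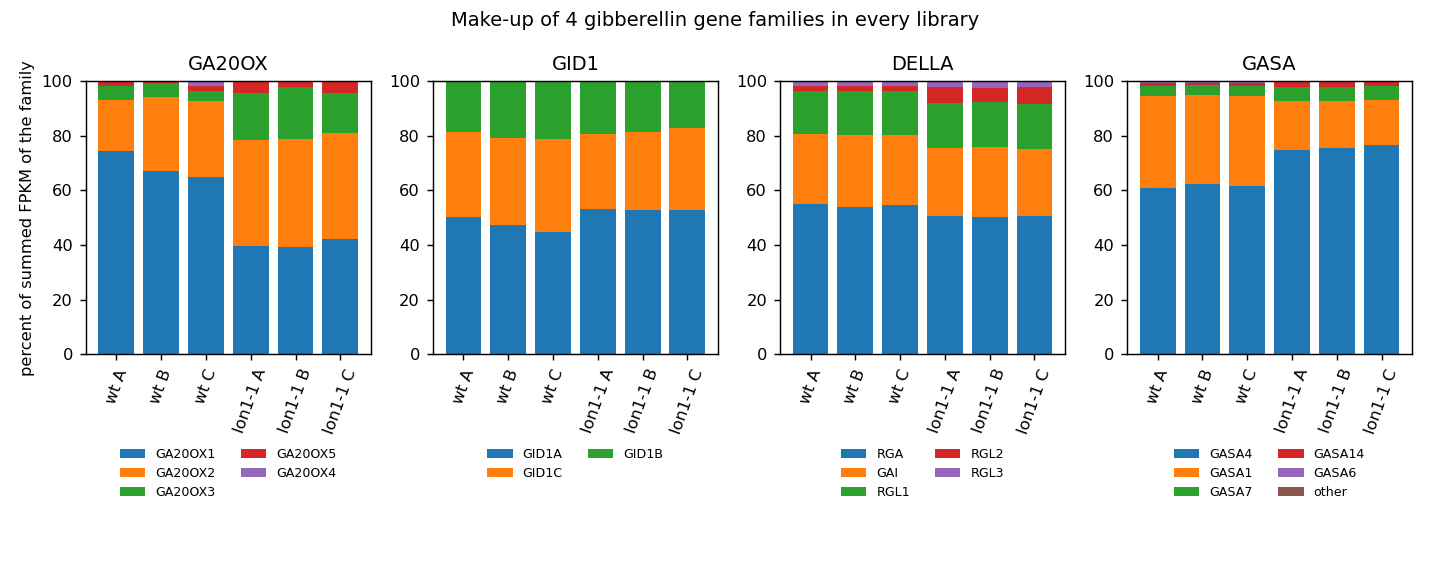
Percent of each family's summed FPKM (y axis) from each gene (colours) in the 6 libraries (x axis), for the GA20OX, GID1, DELLA and GASA families. GA20OX1 takes 64.8% to 74.4% of its family in wt and 39.3% to 42.1% in lon1-1, and GASA4 takes a mean of 61.5% and 75.5% of its own.

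GASA4 and GASA6 changed in opposite directions. GASA4 (AT5G15230, chr5:4944816-4946299, plus strand), a gibberellin-induced peptide gene of growing regions, had 2589, 2720 and 2554 FPKM in wt A, B and C. In lon1-1 it had 3908, 3926 and 4247 FPKM. Its mean rose 1.54-fold, from 2621 ± 87.5 to 4027 ± 191 (SD, n = 3), with a log2 fold change of 0.62 (SE 0.0533, limma adjusted p = 2.98e-06), and by mean level it ranked 14 among the tested genes.

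GASA6 (AT1G74670, chr1:28053030-28054149, plus strand), a gibberellin-induced peptide gene known from embryo axis growth at germination, had 29.16, 29.03 and 30.09 FPKM in wt A, B and C. In lon1-1 it had 4.70, 5.97 and 5.76 FPKM. The highest lon1-1 library was far below the lowest wt library. Its mean fell 5.37-fold, from 29.4 ± 0.578 to 5.48 ± 0.681 (SD, n = 3), with a log2 fold change of -2.24 (SE 0.0706, limma adjusted p = 2.71e-09). A gene model on the opposite strand, AT1G74675, overlaps its locus by 206 bases and is not listed in the table. The libraries kept strand, but whether counting used it is not given in the sources used here.

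Of 15 genes of the GASA family, 13 were listed and 7 tested, with 3 higher, 2 lower and 2 not called, GASA4 and GASA6 included. Of all tested genes 44.7% were called higher and 32.3% lower, so this count by itself does not set the family apart. Among the other 5 tested, 2 were higher (GASA7 and GASA14), 1 lower (GASA1) and 2 not called. GASA1, the second most abundant, fell from 1406 ± 32.0 to 924 ± 17.1 FPKM (log2 fold change -0.61, SE 0.0374, limma adjusted p = 2.77e-07). GASA7 rose from 157.5 ± 7.39 to 274.6 ± 15.3, and GASA14, whose protein has a proline-rich stretch, rose from 37.0 ± 3.74 to 94.9 ± 10.9 (log2 fold changes 0.80 and 1.33). GASA5 and GASA10 were not called (limma adjusted p = 0.693 and 0.0659). GASA10 was called lower with median-ratio scaling, with upper-quartile scaling, and without wt C or lon1-1 B. The family's summed FPKM was 4259 ± 103 in wt and 5332 ± 188 in lon1-1 (SD, n = 3). GASA4 supplied 61.5% ± 0.813 and 75.5% ± 0.978 of it, and GASA1 33% ± 0.576 and 17.3% ± 0.73.

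By level in wt the 8 genes ran from GASA4 through RGA, GAI, GID1A, GASA6, GA3OX1 and GA20OX1 to GA20OX2. GID1A and GASA6 were neighbours there with overlapping library values, at 29.13 to 31.94 and 29.03 to 30.09 FPKM. In lon1-1 GASA6 lay below GA3OX1, at 4.70 to 5.97 against 17.50 to 18.60 FPKM.

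Genes that act with or downstream of DELLA proteins are given by list. Of 8 partners and modifiers 3 rose and 3 fell, beside 44.7% and 32.3% of all tested genes. MYB101, a member of the gibberellin-related MYB factors known from pollen tubes, rose 6.27-fold, from 3.92, 3.32 and 3.06 FPKM in wt to 20.78, 22.62 and 21.16 in lon1-1 (log2 fold change 2.35, SE 0.0717, limma adjusted p = 2.26e-09). Its relatives MYB33 (not called) and MYB65 (lower) had log2 fold changes of 0.04 and -0.12. The MYB65 call was lost with TPM scaling (limma adjusted p = 0.166). It was also lost without any 1 of wt A, wt B, wt C, lon1-1 A or lon1-1 B (limma adjusted p = 0.0589 to 0.0981). SCL3 and GAF1, which bind DELLA proteins, fell from 15.9 ± 0.728 to 9.84 ± 0.442 and from 6.36 ± 0.625 to 3.77 ± 0.0929 FPKM. SEC and SPY, which attach sugars to DELLA proteins, rose with log2 fold changes of 0.24 and 0.13, and the SPY call was lost with median-ratio scaling and without wt B. IDD1, another DELLA-binding factor, was not called, except as lower with median-ratio scaling. Of 3 transport genes NPF3 was tested and not called.

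Of 9 genes that DELLA proteins are known to raise, 3 rose and 5 fell (median log2 fold change -0.32). Those that rose were the members GA20OX2 and GA3OX1 and the transcription factor gene LBD40, from 6.80 ± 0.184 to 31.2 ± 1.34 FPKM (log2 fold change 2.04, SE 0.0448, limma adjusted p = 2.4e-10). Those that fell were GID1A, GID1B, SCL3, BHLH137 (log2 fold change -0.40) and AT3G11280, a MYB-related gene, which went from 42.7 ± 1.24 to 14.8 ± 0.877 FPKM (log2 fold change -1.47, SE 0.0467, limma adjusted p = 2.86e-09). XERICO, a zinc finger gene, had 61.8 ± 0.87 and 62.6 ± 3.60 FPKM (log2 fold change 0.02, 95% interval -0.08 to 0.11). Of 7 genes that DELLA proteins are known to lower, 2 rose and 4 fell (median -0.13). GASA4 and PRE5 rose, and GASA6, GASA1, EXPA1 and PRE1 fell. Beside both lists, 44.7% of all tested genes were called higher and 32.3% lower, with a median log2 fold change of 0.08. Several genes of both lists were also counted in the lists above. PRE1, a small factor that promotes cell elongation, had 7.5, 8.22 and 7.87 FPKM in wt and 4.64, 3.23 and 4.13 in lon1-1, while its relative PRE5 had a log2 fold change of 0.23 that was not called with median-ratio scaling or without wt A. EXPA8, a wall-loosening expansin, was not called (log2 fold change 0.15, 95% interval -0.01 to 0.32), though it was without wt A or lon1-1 C and with TPM scaling. The EXPA1 call was lost with TPM scaling (-0.08).

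**Figure D4:**
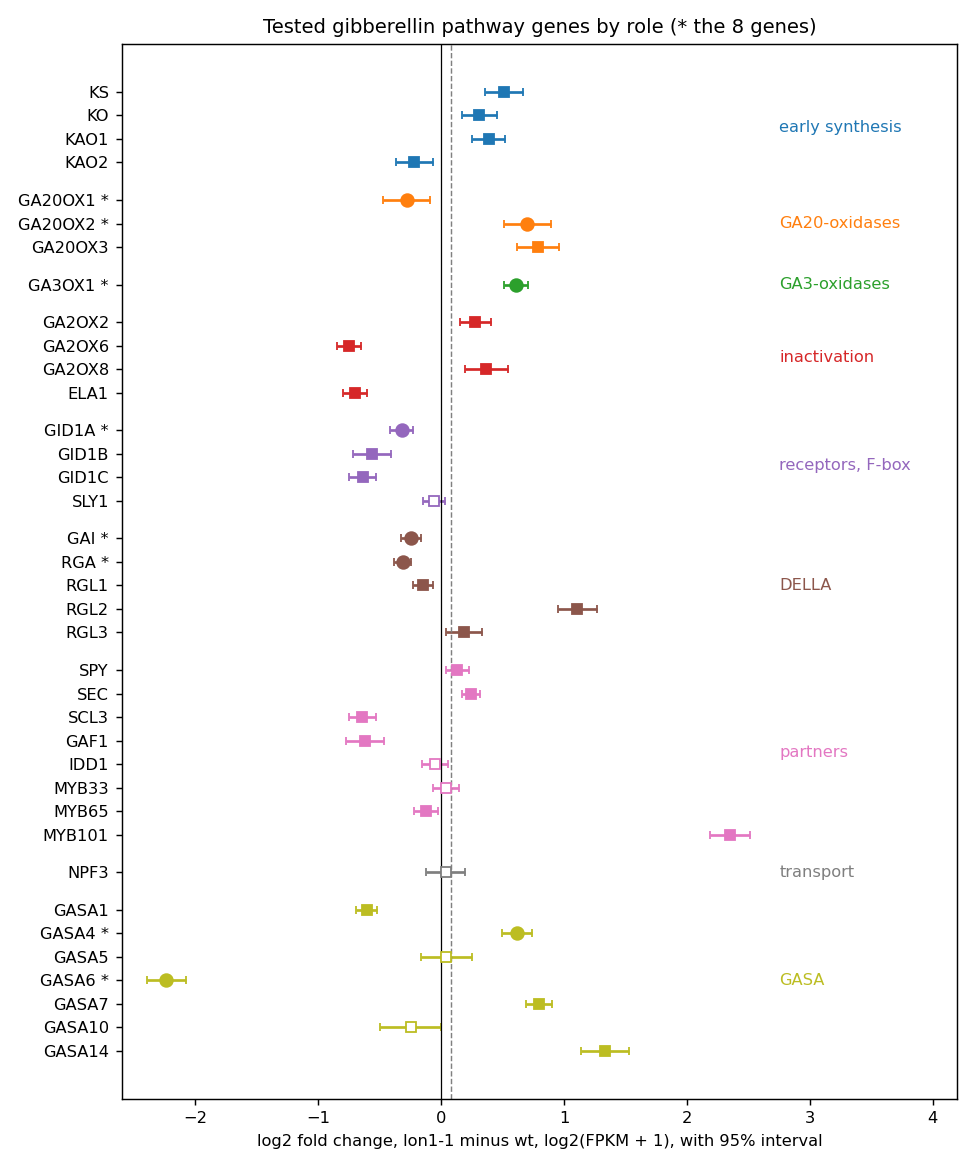
Log2 fold change, lon1-1 minus wt on log2(FPKM + 1), with 95% interval (x axis), of tested gibberellin genes by role (y axis). Genes found only in the lists of genes raised or lowered by DELLA proteins are not shown. Circles and asterisks mark the 8 genes, filled symbols those called, and the dashed line the median of all tested genes (0.08). The 3 receptors lie left of 0, and the DELLA, GA20OX and GASA genes lie on both sides.

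Outside the 8 genes, the gibberellin lists held 61 genes, of which 37 were tested, 15 were called higher, 14 lower and 8 neither, beside 77.0% called of all tested genes. GA20OX3 is among the 15. With median-ratio scaling 12 were higher and 17 lower, and with TPM scaling 16 and 12. Another 20 were below the filter and 4 were not listed. Their median log2 fold change was 0.04, beside 0.08 for all tested genes. The genes nearest to GASA6 in pattern over the 6 libraries, by Euclidean distance between centred log2(FPKM + 1) values, were RTFL12 (0.148), UMAMIT33 (0.162) and SWEET3 (0.169). Mean FPKM in wt and lon1-1 was 27.6 and 5.51 for RTFL12, 44.2 and 8.84 for UMAMIT33, and 7.39 and 0.83 for SWEET3. For GA20OX2, with the second largest change of the 8, the nearest genes were PEP7 (0.104), LSU3 (0.121) and GRF1 (0.125). Their means in wt and lon1-1 were 12.18 and 20.65, 0.917 and 2.19, and 8.05 and 13.55 FPKM. By mean, SWEET3 in lon1-1 and LSU3 in wt were under 1 FPKM. Likeness here was taken over 2 groups of 3 libraries, which all these genes share.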

How the data were processed

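RNA of whole seedlings was measured in 6 libraries, prepared with removal of ribosomal RNA and with strand kept, per the labels' protocols. The deposited table gives FPKM for each gene and library to 2 decimals, computed by the authors. HISAT2, Bowtie2, RSEM and TAIR10 are named in the submitters' processing notes, without versions. The 30 mitochondrial gene IDs of the table are all in the TAIR10.1 annotation, from which loci, positions and sequences were taken by gene ID (24152 of 24193 genes matched).

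Testing covered the 18308 genes that reached 1 FPKM in 3 or more libraries. They were fitted with limma 3.58.1 in R 4.3.3 on log2(FPKM + 1), empirical Bayes with a mean-variance trend, genotype as the only term and a threshold of 0.05 on the Benjamini-Hochberg adjusted p. A fold change on this scale understates the change of low genes, so ratios are of mean FPKM. The fit was tested on simulated data. Intervals are limma's at 95%. The table holds no fragment counts. Depth was estimated by choosing, on a grid of 250000 fragments, the total and the length offset (180 bases) that brought low values of short transcripts nearest to whole fragments: 93.2% to 99.1% lay within 0.15 of a whole number. The offset and totals were chosen for this, so the share is no independent check. No interval from counting is given.

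The members, gene lists and motifs were chosen with earlier results of these data known, and the motifs after the values were seen. The rule for naming took the 8 members, LON1, list genes that passed, and the 3 genes nearest in pattern to each of the 2 members that changed most; those named without passing were chosen after their values were seen. Marker lists of root hairs, shoot meristem, seed storage and etiolated seedlings were read alongside. Alternatives were other pseudocounts, filters and scalings, a fit without the trend, a replicate block, a test against a fold of 1.5, and leaving out each library.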

Additional observations from a re-analysis of the deposited data

How the results depend on the processing

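All 8 members kept their direction under every alternative in which they were tested, and GASA6 kept its call throughout. With a filter at a mean of 5 FPKM, GA20OX1 and GA20OX2 were not tested. When a change beyond 1.5-fold was required (treat), 1525 genes were higher and 1408 lower, against 8182 and 5922. It then called 0 members higher and 1 lower, and 5 and 2 of the other gibberellin genes. The members it no longer called had log2 fold changes of -0.28 (GA20OX1), 0.70 (GA20OX2), 0.61 (GA3OX1), -0.32 (GID1A), -0.31 (RGA), -0.25 (GAI) and 0.62 (GASA4). On log2(FPKM + 1) the values of GA20OX2, GA3OX1 and GASA4 exceed 1.5-fold, but not beyond their error. For GA20OX2 the added 1 shrinks the change, whose ratio of mean FPKM was 2.12. The treat test was run with the added 1 only. With the filter at 5 FPKM, 8 other gibberellin genes were called higher, against 15, since fewer genes were tested. Leaving out 1 library at a time, the log2 fold change of GA20OX1 ran from -0.343 to -0.20, and the call was lost without wt A. The count of genes higher ran from 7442 to 8024 and of genes lower from 5218 to 5746. With an added 0.1 in place of 1, the GA20OX2 log2 fold change was 1.04 and the GASA6 log2 fold change was -2.41. Scaling moved the median of all tested genes from 0.08 to 0.00 (median-ratio) or 0.13 (TPM). Of 61 other tested genes in the lists, markers included, 12 changed their call under an alternative other than treat, and 0 of the called ones changed direction.

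Libraries with the same replicate letter did not deviate together (correlations of 0.0604, 0.0171 and -0.0318), so they were not taken as pairs. With the replicate block 8145 genes were called higher and 5901 lower, and all 8 members kept their calls. Of the genes named, it changed the call of GASA10 (adjusted p = 0.0344, limma).

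With 3 libraries a genotype, the 4 family shares could not reach a p under 0.1. GA20OX2 and the genes below the filter rest on few fragments. Estimates for GA20OX1 were also low, at 112 to 176 fragments per library, and those for GASA6 ran from 118 to 708.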
